A study of Mus musculus with 2 samples.

Results

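The miR-106a-363 cluster is a run of 6 microRNA (miRNA) genes, Mir106a, Mir18b, Mir20b, Mir19b-2, Mir92-2 and Mir363, on the minus strand of the mouse X chromosome (GRCm38, chrX:52741693-52742567). The members were chosen by position as all 6 annotated miRNA genes in these 875 bases, of 1973 gene identifiers in the count tables. Their levels were measured by small RNA sequencing of RNA under 30 nucleotides from whole thymus of newborn mice (postnatal day 0, strain B6NCrl). Replicate 1 was pup 2 and replicate 2 was pup 3 of 1 litter, with both lobes taken from each pup and 1 library made per pup, and both libraries belong to 1 group. The labels record no sex for the pups and give both the same donor identifier. Differences between the libraries that come with sex, with the animal, with dissection or with library preparation therefore cannot be told apart. In whole organs, fewer cells of a type and less RNA per cell cannot be told apart either.

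The cluster is a paralog of the miR-17-92 cluster (Mir17 to Mir92-1, chromosome 14, in the noncoding host gene Mir17hg), and a further paralog, Mir106b to Mir25, lies in the replication gene Mcm7 on chromosome 5. A miRNA guides Argonaute to messenger RNAs mainly through its seed, bases 2 to 8, and the 3 clusters encode a small set of seeds over and over. The miR-17 seed is known to restrain cell cycle and apoptosis genes such as Cdkn1a and Bcl2l11, and forced expression of miR-17-92 expands lymphocytes in mice. The X-linked cluster is known as a site of retroviral insertion in mouse T cell leukaemia, where its host transcript was named Kis2, while mice that lack this cluster alone develop without an obvious defect.

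The mature arms of the members are shown because the seed sets the targets and because identical arms at different loci limit what can be counted. All 6 members matched the RefSeq miRNA table (GRCm38.p6), which holds 11 mature arms for them. Each is written 5′ to 3′ with bases 2 to 8 in capitals.
miR-106a-5p: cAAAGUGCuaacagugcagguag
miR-20b-5p: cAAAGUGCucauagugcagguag
miR-106a-3p: aCUGCAGUgccagcacuucuuac
miR-20b-3p: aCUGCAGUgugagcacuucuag
miR-18b-5p: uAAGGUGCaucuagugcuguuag
miR-18b-3p: uACUGCCCuaaaugccccuucu
miR-19b-3p: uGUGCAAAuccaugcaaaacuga
miR-19b-2-5p: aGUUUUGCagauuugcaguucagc
miR-92a-3p: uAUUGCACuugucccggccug
miR-92a-2-5p: aGGUGGGGauugguggcauuac
miR-363-3p: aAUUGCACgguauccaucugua

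The members thus fall into 4 main seed groups. Mir106a and Mir20b carry the miR-17 seed on the 5′ arm and share a seed on the 3′ arm as well. Mir92-2 and Mir363 carry the miR-92 seed, Mir18b the miR-18 seed and Mir19b-2 the miR-19 seed. miR-363-3p shares the seed of miR-92a-3p but is identical to it at 10 of 21 positions compared.

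The 5′ arms of Mir106a, Mir20b and Mir18b are set beside those of their chromosome 14 paralogs, because 1 or 2 bases set them apart. The 3′ arms of these genes were not compared. Bases that differ are in capitals.
miR-106a-5p: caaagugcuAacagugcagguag
miR-17-5p: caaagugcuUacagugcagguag
miR-20b-5p: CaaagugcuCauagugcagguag
miR-20a-5p: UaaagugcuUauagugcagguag
miR-18b-5p: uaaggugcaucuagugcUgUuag
miR-18a-5p: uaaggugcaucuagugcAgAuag

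Counting positions from 1 at the 5′ end and giving the paralog's base first, miR-106a-5p differs from miR-17-5p by U10A only. miR-20b-5p differs from miR-20a-5p by U1C and U10C, and miR-18b-5p differs from miR-18a-5p by A18U and A20U. The other members with a paralog there, Mir19b-2 and Mir92-2, encode the same miR-19b-3p and miR-92a-3p as Mir19b-1 and Mir92-1, base for base. Their hairpins are written with the longest shared run in capitals.
Mir92-2: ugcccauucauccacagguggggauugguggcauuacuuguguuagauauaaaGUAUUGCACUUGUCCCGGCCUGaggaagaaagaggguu
Mir92-1: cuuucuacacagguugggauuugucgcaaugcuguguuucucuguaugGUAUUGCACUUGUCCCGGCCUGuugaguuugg
Mir19b-2: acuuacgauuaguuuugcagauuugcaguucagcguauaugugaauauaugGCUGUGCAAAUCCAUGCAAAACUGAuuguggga
Mir19b-1: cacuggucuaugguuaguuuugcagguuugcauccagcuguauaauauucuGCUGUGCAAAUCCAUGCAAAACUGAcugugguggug

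The shared run is 22 bases for the Mir92 genes and 25 for the Mir19b genes, and each holds the whole mature arm. The deposited tables tally reads with several genomic matches apart from the genes, so reads of miR-19b-3p and miR-92a-3p that do not reach past these runs can be missing from the counts. The levels of Mir19b-2 and Mir92-2, and of Mir19b-1 and Mir92-1, are uncertain for that reason. For Mir106a, Mir18b, Mir20b and Mir363, the longest run shared with any other of 1005 hairpins in the table was 13, 17, 14 and 14 bases. The 5′ arms of Mir106a, Mir18b and Mir20b still differ from those of their paralogs by only 1 or 2 bases. The mapping rule for mismatches is not given in the sources used here, and whether reads were assigned to the wrong locus was not tested.

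The libraries held 2734133 counts (replicate 1) and 1289151 counts (replicate 2) on the strand of the miRNA genes, of 10642220 and 4892171 reads in all. Multimapping reads made up 56.3% and 57.5% of the reads. Levels are gene-strand counts per 1000000 (CPM), given as mean ± SD with n = 2 libraries. A count of 0 allows up to 3 counts, a level of 1.10 CPM in replicate 1 and 2.33 CPM in replicate 2. Detection required 10 counts or more in each library, which 294 genes reached. Intervals and floors cover counting error only, since PCR reads without molecular identifiers are not independent molecules. How evenly library preparation captured different miRNAs was not tested. Levels and ratios of different genes therefore compare counted reads, not RNA amounts, and their intervals and SDs do not cover such unevenness. Of the markers used to check the tissue, all 7 thymocyte and lymphocyte genes (Mir181a-1, Mir181a-2, Mir181b-1, Mir181b-2, Mir150, Mir155 and Mir342) and all 4 epithelial genes (Mir205, Mir200c, Mir141 and Mir429) were detected, with 5.52% ± 0.346 and 3.09% ± 0.00237 of the counts. Of the 5 genes of liver, neurons and heart in the tables, Mir122 was detected (99.1 CPM ± 29.9), Mir208a had 6 and 105 counts and the 3 Mir124a genes had 0. The heart gene Mir208a thus had more counts in replicate 2, the smaller library. Whether the dissections differed in other tissue taken with the thymus was not tested.

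All 6 members were detected, but their levels were far apart, from 22.1 CPM for Mir19b-2 to 9274 CPM for Mir106a. Mir106a and Mir20b, the genes with the miR-17 seed, were highest and close to each other, followed by Mir363, Mir92-2, Mir18b and Mir19b-2. Together the members took 2.68% of the counts in replicate 1 (95% Wilson interval 2.67 to 2.70) and 2.50% in replicate 2 (2.47 to 2.53), a mean of 2.59% ± 0.131. No counted read of either library lay on the strand opposite to any member, multimapping reads being left out.

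**Figure D1:**
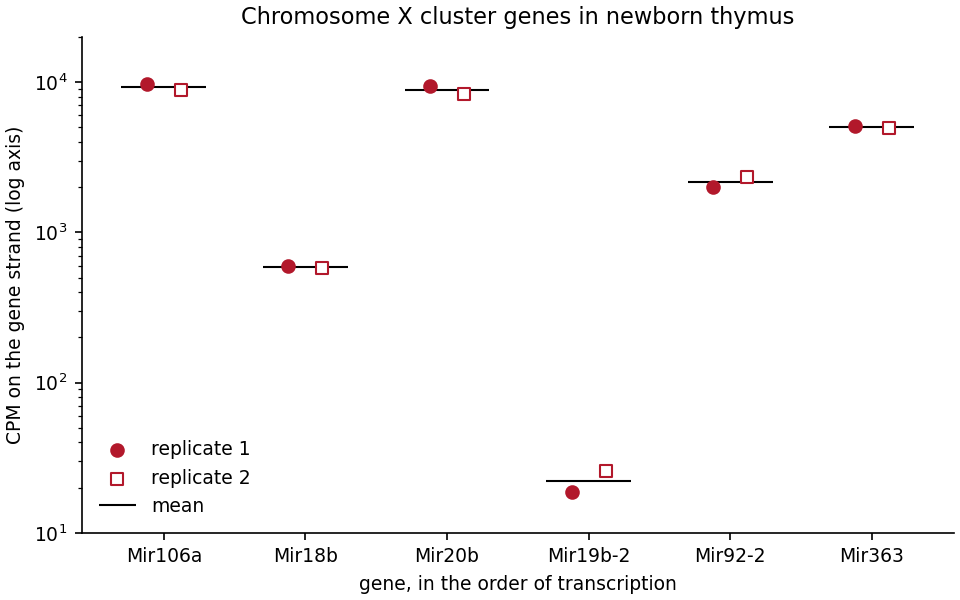
Level of each member in CPM on the gene strand (log axis), with the genes in the order of transcription. Filled circles are replicate 1, open squares replicate 2 and lines the mean of both libraries; Mir106a and Mir20b sit at 9274 and 8881 CPM and Mir19b-2 at 22.1 CPM.

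Among the genes with the miR-17 seed, Mir106a (ENSMUSG00000065456.1, chrX:52742503-52742567) had 26603 counts in replicate 1 and 11367 in replicate 2, which were 9730 and 8817 CPM, a mean of 9274 ± 645. Mir20b (ENSMUSG00000076041.1, chrX:52742113-52742192) had 25801 and 10733 counts, or 9437 and 8326 CPM, a mean of 8881 ± 786. They ranked 31 and 32 among the 294 detected genes. Mir106a exceeded Mir20b within each library, by 1.03 times in replicate 1 (exact 95% interval 1.01 to 1.05) and 1.06 times in replicate 2 (1.03 to 1.09), a mean of 1.05 ± 0.0198, while the CPM ranges of the genes over the libraries overlapped.

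The genes with the miR-92 seed came next. Mir363 (ENSMUSG00000070106.1, chrX:52741693-52741767), the member with no counterpart in the chromosome 14 cluster, had 13883 and 6351 counts, or 5078 and 4926 CPM, a mean of 5002 ± 107. Mir92-2 (ENSMUSG00000065613.1, chrX:52741838-52741928) had 5430 and 2999 counts, or 1986 and 2326 CPM, a mean of 2156 ± 241. Mir363 was thus the higher of these neighbours in both libraries, by 2.56 times in replicate 1 and 2.12 times in replicate 2, although Mir92-2 can be undercounted.

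Mir18b and Mir19b-2 were the low members. Mir18b (ENSMUSG00000077111.2, chrX:52742331-52742413), whose seed differs from the miR-17 seed by a base, had 1638 and 742 counts, or 599 and 576 CPM, a mean of 587 ± 16.6. Mir19b-2 (ENSMUSG00000065473.1, chrX:52741983-52742066) had 51 and 33 counts, or 18.7 and 25.6 CPM, a mean of 22.1 ± 4.91. Mir106a exceeded Mir18b by 15.8 ± 0.652 times and Mir19b-2 by 433 ± 125 times, although Mir19b-2 can be undercounted. The CPM ranges of all neighbours in this order other than Mir106a and Mir20b did not overlap.

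As shares of the cluster's counts, Mir106a gave 35.8% ± 0.684, Mir20b 34.2% ± 1.30, Mir363 19.3% ± 0.563, Mir92-2 8.35% ± 1.35, Mir18b 2.27% ± 0.0503 and Mir19b-2 0.0859% ± 0.0233. The RNA sequenced was under 30 nucleotides, while the mature arms of the members are 21 to 24 bases. Counts were therefore compared between genes without division by length. Divided by the length of the annotated gene (65 to 91 bases), the shares came in the same order, with Mir106a at 40.6% and Mir20b at 31.6%. The level did not follow position: in the direction of transcription the genes ran high, low, high, lowest, intermediate and intermediate.

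**Figure D2:**
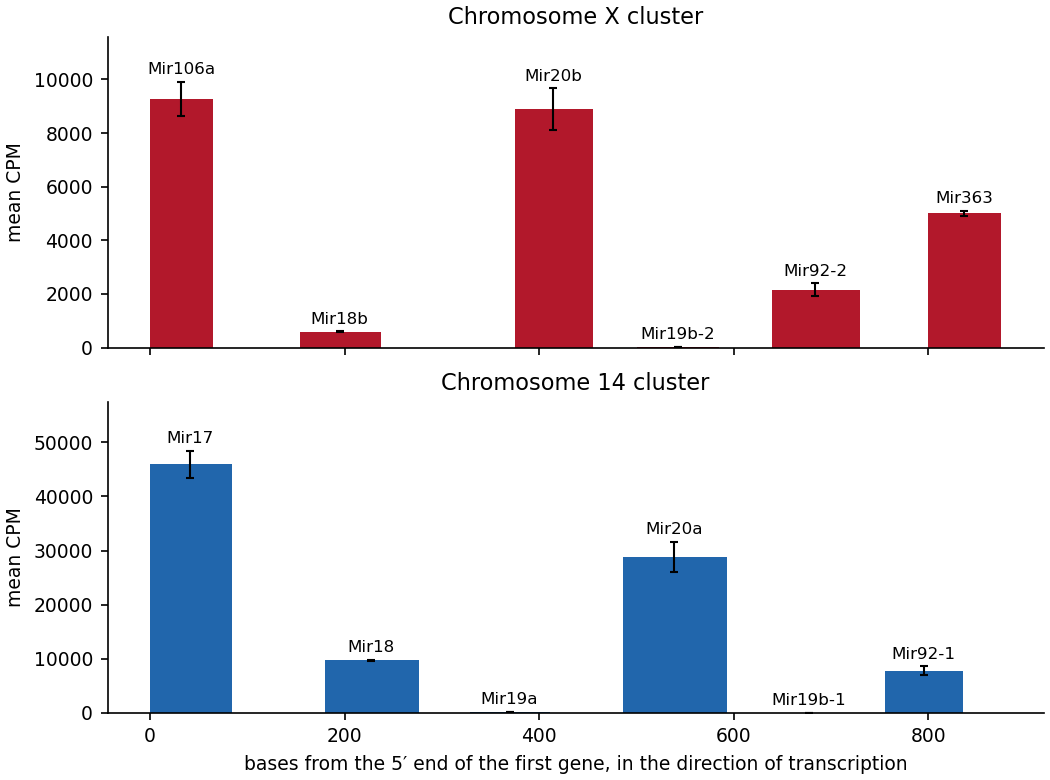
Mean CPM on the gene strand (bars, with SD over 2 libraries) at each gene's place in the X cluster (upper plot) and the chromosome 14 cluster (lower plot), by bases from the 5′ end of the first gene; each plot has its own vertical scale. In both clusters the genes with the miR-17 seed are high and the Mir19 genes are close to 0 on this scale, and Mir363 stands at the 3′ end of the X cluster alone.

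By annotation, Mir106a overlaps the last 5 bases of the noncoding gene Kis2 on the same strand (chrX:52742563-52744960), and the other members overlap no annotated gene. The nearest miRNA gene of the tables outside the cluster is Mir450b, 305430 bases away. Of 120 X-linked genes in the tables, 34 were detected, and the cluster held 36.9% ± 0.368 of the counts on X-linked genes. Among these 34, Mir106a and Mir20b ranked 2 and 3, after Mir322 at 15474 CPM ± 1099, Mir363 ranked 5 and Mir92-2 ranked 10.

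The X cluster gave fewer counts than either paralogous cluster. Its members summed to 73406 counts in replicate 1 and 32225 in replicate 2, against 261328 and 115068 for the chromosome 14 cluster, a ratio of 0.281 in replicate 1 (exact 95% interval 0.279 to 0.283) and 0.280 in replicate 2 (0.277 to 0.284). The mean ratio was 0.280 ± 0.000597, and the libraries differed by less than these intervals. Against the chromosome 5 cluster, with 142300 and 64860 counts, the ratio was 0.516 in replicate 1 (0.511 to 0.520) and 0.497 in replicate 2 (0.490 to 0.504), a mean of 0.506 ± 0.0134. Of the counts of all 3 clusters, the X cluster held 15.3% ± 0.140. Reads that match both loci of miR-19b-3p or miR-92a-3p are uncounted, so these ratios and this share are uncertain by an unknown amount. No gene of the chromosome 5 cluster shares a mature arm with another locus. The ratio to the chromosome 14 cluster was 0.227 over the homologous pairs and 0.222 over pairs with no shared mature arm.

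The ratio was unequal among the homologous genes. Mir106a had 0.202 ± 0.00313 times the counts of Mir17, the most abundant gene of the 3 clusters at 45956 CPM ± 2486. Mir20b had 0.308 ± 0.00325 times those of Mir20a (28814 CPM ± 2851). Mir18b stood lowest against its paralog, with 0.0606 ± 0.00230 times the counts of Mir18, the gene of miR-18a (9689 CPM ± 93.4). The exact intervals of these 3 ratios did not overlap one another within either library: 0.201 to 0.207, 0.302 to 0.310 and 0.0592 to 0.0654 in replicate 1, and 0.196 to 0.204, 0.304 to 0.317 and 0.0547 to 0.0635 in replicate 2.

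For the loci with identical mature arms, Mir92-2 had 0.278 ± 0.00129 times the counts of Mir92-1 (7743 CPM ± 829). Mir19b-2 had 0.345 times those of Mir19b-1 in replicate 1 (exact 95% interval 0.246 to 0.477) and 0.660 times in replicate 2 (0.412 to 1.04), on 51 against 148 and 33 against 50 counts. These intervals overlap, and the difference between the ratios was not tested. Reads that match both loci are not in these ratios, and how many there were per locus was not tested. Mir19a, whose mature arm matches no other locus exactly, had 172 CPM ± 44.0.

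**Figure D3:**
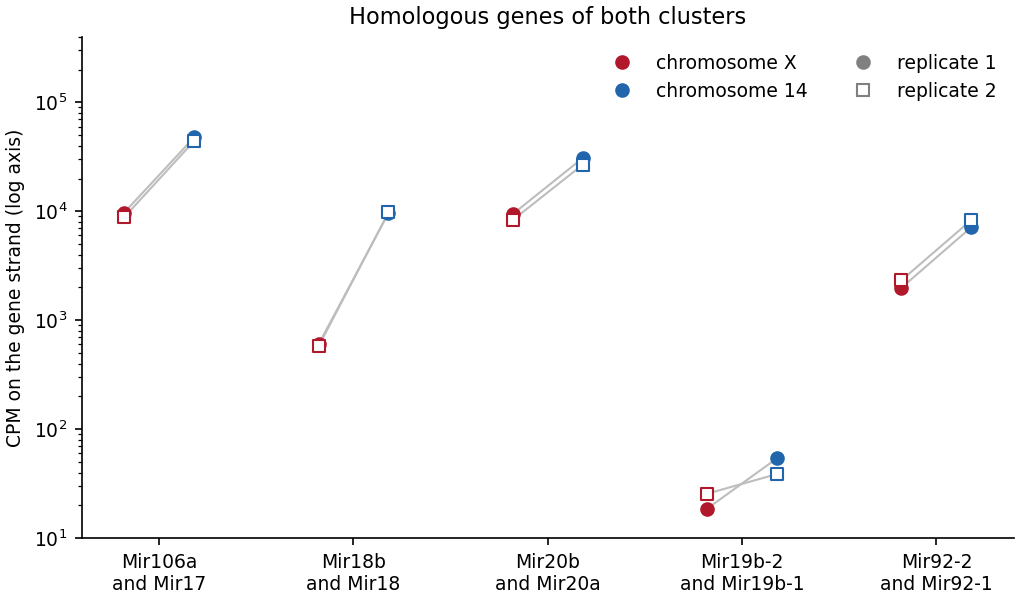
CPM on the gene strand (log axis) of each X-linked member (red, left) and its chromosome 14 paralog (blue, right), with filled circles for replicate 1, open squares for replicate 2 and grey lines joining the values of a library. The line is steepest for Mir18b and Mir18, a ratio of 0.0606, and flattest for Mir19b-2 and Mir19b-1.

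The order of counted reads was also not the same in both clusters. In the X cluster Mir92-2 exceeded Mir18b by 3.32 times in replicate 1 and 4.04 times in replicate 2. In the chromosome 14 cluster, Mir18 exceeded Mir92-1, by 1.34 times in replicate 1 and 1.17 times in replicate 2. Reads of the mature arm shared by Mir92-2 and Mir92-1 can be missing from both, so the order of Mir18 and Mir92-1 is uncertain. Mir106a was close to Mir20b, with a ratio of 1.05 ± 0.0198, whereas Mir17 exceeded Mir20a by 1.60 ± 0.0719 times.

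Grouped by shared seed over all annotated genes, the members supplied a small part of the miR-17 seed and a large part of the miR-92 seed. The counts do not separate the arms of a hairpin, so each gene's total was used. Genes with the miR-17 seed took 14.1% ± 0.796 of all gene-strand counts, and Mir106a and Mir20b gave 13.1% of these in replicate 1 (95% Wilson interval 13.0 to 13.2) and 12.7% in replicate 2 (12.5 to 12.8). Mir17, Mir93 and Mir20a gave the largest parts, 32.6% ± 0.0763, 21.2% ± 0.866 and 20.4% ± 0.870, and Mir106b gave 12.96% ± 0.217.

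Genes with the miR-92 seed took 1.85% ± 0.0915 of all counts. Mir363 and Mir92-2 together gave 39.5% of these in replicate 1 (39.0 to 39.9) and 37.8% in replicate 2 (37.2 to 38.4). Mir363 alone gave 27.0% ± 1.91, after Mir92-1 with 41.7% ± 2.41 and before Mir25, of the Mcm7 cluster, with 16.4% ± 0.997 and Mir92-2 with 11.6% ± 0.725. Mir363 had 1.64 ± 0.0165 times the counts of Mir25. Mir32, the gene with this seed outside the 3 clusters with at least 100 CPM, had 561 CPM ± 20.6, and Mir363 exceeded it by 8.91 ± 0.137 times. Because miR-92a-3p reads that match both loci are uncounted, the parts of Mir363 and Mir25 can be too high, by an unknown amount.

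Mir18b gave 5.72% ± 0.205 of the counts of the genes with the miR-18 seed, the rest being from Mir18. Mir19b-2 gave 51 of 753 counts of genes with the miR-19 seed in replicate 1 and 33 of 264 in replicate 2, or 6.77% (5.19 to 8.80) and 12.5% (9.04 to 17.0). The miR-19 seed as a whole took 0.0240% ± 0.00499 of the counts. This total and the share of Mir19b-2 leave out miR-19b-3p reads that match both Mir19b loci. The number of such reads was not tested, so both values describe counted reads only and do not give the level of this seed.

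**Figure D4:**
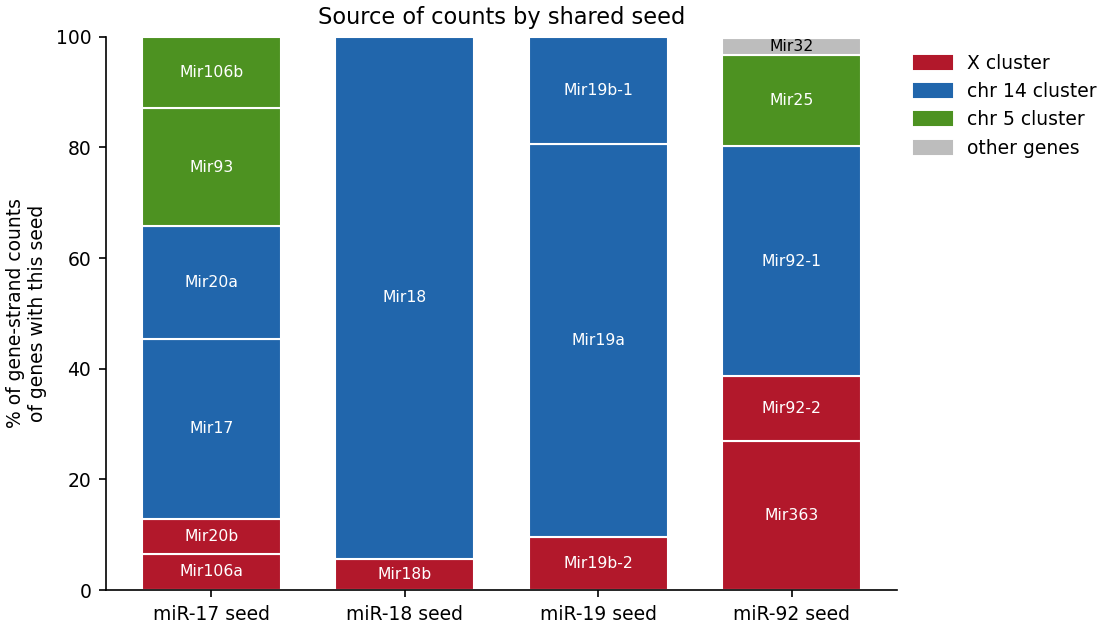
Mean share of each gene, in percent over 2 libraries, in the gene-strand counts of all genes with the same seed, with the X cluster in red at the bottom, the chromosome 14 cluster in blue, the chromosome 5 cluster in green and other genes in grey. The red part is 38.6% for the miR-92 seed, 12.9% for the miR-17 seed, 9.64% for the miR-19 seed and 5.72% for the miR-18 seed. Uncounted reads that match both loci of miR-19b-3p or miR-92a-3p make the miR-19 and miR-92 parts uncertain.

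Between the littermates the members differed little in size. Scaled by TMM, their log2 ratios of replicate 1 over replicate 2 ran from -0.39 to 0.25, with a median of 0.12 against 0.030 over all 294 genes, and the median absolute log2 ratio was 0.19 against 0.21. Exact binomial tests with Benjamini-Hochberg adjustment over the 294 genes called 4 of the 6 members, where 43.5% of all genes were called. Of the members, 3 were higher and 1 was lower in replicate 1, against 23.5% and 20.1% of all genes. With counts scaled to the library total instead, the split over all genes turned, with 52 higher and 72 lower in place of 69 higher and 59 lower. These tests compare the reads of 2 libraries, and the differences have no replicate check. Smaller differences are called where counts are high, and the shares over all genes are not matched to the members for counts. In edgeR's negative binomial test, whose dispersion came from the same 2 libraries being compared, 1 gene was called (Mir208b, no member and named after its values were seen), and 15 passed at an unadjusted p under 0.05. Since the differences tested also set that dispersion, the lack of calls says nothing about the members.

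Mir106a and Mir20b were higher in replicate 1, by 0.21 on the log2 scale for Mir106a (0.18 to 0.24, adjusted exact binomial p = 1.10e-37) and 0.25 for Mir20b (0.21 to 0.28, adjusted p = 3.10e-50), with exact 95% intervals in parentheses. Mir363 was higher by 0.11 (0.067 to 0.15, adjusted exact binomial p = 1.78e-06), but with counts scaled to the library total its log2 ratio was 0.044 and it was not called (adjusted p = 0.0985). Mir92-2 was lower in replicate 1, with a log2 ratio of -0.16 (-0.23 to -0.097, adjusted exact binomial p = 3.64e-06). Mir18b at 0.12 (-0.0019 to 0.25) and Mir19b-2 at -0.39 (-1.05 to 0.29) were not called, with adjusted exact binomial p = 0.107 and 0.387. The test had far fewer counts for these members than for Mir106a.

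Of the 9 genes of the paralogous clusters, all called by the same test, 8 were higher and 1 was lower in replicate 1, with a median log2 ratio of 0.15, against 23.5% and 20.1% of all genes. With counts scaled to the library total, 5 were called higher and 1 lower, and Mir18, Mir19b-1 and Mir25 were not called. The gene that was lower was Mir92-1, at -0.15 (-0.19 to -0.12), next to -0.16 for Mir92-2 with the same mature arm. The other paralogs of members ranged from 0.047 for Mir18 and 0.18 for Mir17 to 0.27 for Mir20a and 0.55 for Mir19b-1. The direction for Mir18 depended on the scaling, with a log2 ratio of -0.020 when counts were scaled to the library total. Here too the shares over all genes are not matched for counts, and most of these paralogs had high counts.

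**Figure D5:**
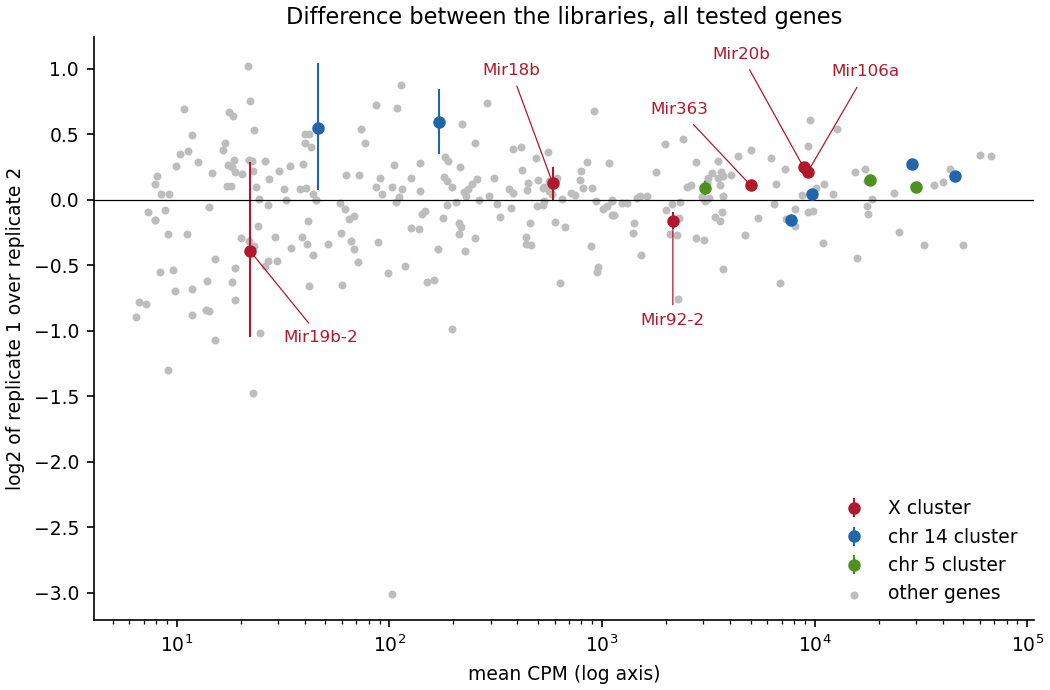
Log2 ratio of replicate 1 over replicate 2 after TMM scaling against mean CPM (log axis) for 294 detected genes, with the X cluster in red, the chromosome 14 cluster in blue, the chromosome 5 cluster in green and exact 95% intervals as bars (hidden by the point where short). Mir92-2 and Mir92-1 lie below 0 at -0.16 and -0.15, and Mir106a and Mir20b lie above it at 0.21 and 0.25.

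With 2 libraries of 1 group there is no pattern over conditions to match, so the most similar gene was taken as the nearest in log2 CPM over both libraries. Mir106a and Mir20b were each other's nearest gene, at a distance of 0.094. For the others the nearest genes were Mir181d for Mir363 (0.19), Mir301 for Mir92-2 (0.092), Mir669l for Mir18b (0.061) and Mir668 for Mir19b-2 (0.052). The nearest gene of a member was another member in the case of Mir106a and Mir20b only.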

How the data were processed

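Small RNA was sequenced from 2 newborn mouse thymuses, 1 library each. The deposited tables hold raw counts of reads per miRNA gene, not normalized and not pooled. Reads were mapped to mm10 and counted over annotation M4, per the deposited text files. The name of the aligner or counter is not given in the sources used here. Of 3 unnamed count columns, the first equalled the sum of the other 2 for 1973 of 1973 genes, and of those 2 the one with the larger total was taken as the gene strand and used. Unmapped (10.6% and 9.17%), multimapping and unassigned (2.99% and 2.57%) reads stayed out of library sizes and tests. So did opposite-strand counts (468355 in replicate 1 and 215626 in replicate 2), except where unstranded counts were used. Symbols and coordinates came from GENCODE M21 (1894 identifiers matched), a later release than M4, and sequences from RefSeq (GRCm38.p6).

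CPM was the count over the gene-strand total. Ratios within a library have exact binomial intervals, shares Wilson intervals. Detected genes (10 counts or more in each library) were tested, replicate 1 against replicate 2, with a two-sided exact binomial test conditioned on TMM effective library sizes (edgeR 4.0.16, R 4.3.3, scipy 1.17.1). Benjamini-Hochberg adjustment was applied at 0.05. The test was first run on simulated Poisson counts. These hold no spread beyond counting, as the test assumes, so that run cannot show how it behaves with further spread between libraries. With 1 group there is no group term for a quasi-likelihood test. P-values measure the spread of counting only. Named genes were all members, the 9 paralogs, other genes with a member's seed and at least 100 CPM, and the gene nearest in level to each member. Members and lists were chosen with earlier results of these data known. Alternatives were the unstranded column, other denominators and gene sets, division by gene length, scaling to totals or DESeq2 1.42.0 size factors, other filters (1 count in either library, 100 in both), a negative binomial test and each library alone.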

Additional observations from a re-analysis of the deposited data

How the results depend on the processing

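The cluster's share of 2.59% was 2.22% with unstranded counts, 0.674% of all reads and 2.78% without the most abundant gene, and between 2.50% and 2.68% with 1 library left out. Its ratio to the chromosome 14 cluster, 0.280, was 0.227 over the homologous pairs and 0.222 over pairs with no shared mature arm. It was 0.280 to 0.281 with 1 library left out, and the ratio to the chromosome 5 cluster was 0.497 to 0.516. Divided by gene length, the shares within the cluster were 40.6% for Mir106a, 31.6% for Mir20b, 6.77% for Mir92-2 and 2.01% for Mir18b. The negative binomial test called 1 gene in place of 128, and there the log2 ratios of Mir106a (0.21), Mir20b (0.25), Mir92-2 (-0.16) and Mir363 (0.11) were not called. Its spread came from the same 2 libraries, so it does not bear on the stability of these calls. Scaled to totals, Mir363 (0.044) was not called, and Mir18 turned to -0.020. No log2 ratio of a member changed sign under the alternatives run. With at least 100 counts required, Mir19b-2 could not be tested, and with 1 library left out no test between libraries could be run. No paired analysis was possible because both libraries belong to 1 group. Counts of 51 and 33 limit Mir19b-2, and uncounted multimapping reads limit it and Mir92-2.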

Other observations

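The spacing of the hairpins differed between the clusters. From Mir106a to Mir363 the gaps between neighbouring genes were 89, 138, 46, 54 and 70 bases, over a span of 875 bases. From Mir17 to Mir92-1 they were 96, 53, 75, 41 and 35 bases, over 836 bases. In the X cluster the widest gap, 138 bases, lay between Mir18b and Mir20b, the place where the chromosome 14 cluster holds Mir19a. The member hairpins held from 38.1% G and C (Mir19b-2) to 47.3% (Mir92-2), below the median of 51.7% over 1005 mouse hairpins in the RefSeq table.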
